A study of Mus musculus with 14 samples.

Results

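The postsynaptic density scaffolds described here are 10 genes: the membrane-associated guanylate kinases Dlg1, Dlg2, Dlg3 and Dlg4, the Shank proteins Shank1, Shank2 and Shank3, and the guanylate kinase-associated proteins Dlgap1, Dlgap2 and Dlgap3. They were chosen by name, by matching their symbols to the Ensembl gene IDs of the count tables, and all 10 were found among 55359 gene IDs and passed the low-count filter that left 20330 genes. Transcripts were counted by bulk RNA sequencing of poly-A selected RNA in 14 libraries of the mouse superior colliculus, the midbrain structure that receives visual input from the retina in its superficial layers and input from other senses in its deep layers. All animals were ICR/CD-1 pups at postnatal day 6. At postnatal day 0 to 1 they had received 0.3 to 0.5 µL of 50 mM carbenoxolone (cbx, a blocker of gap junctions given to abolish the spontaneous waves of activity in the retina) or of saline into the eye. The 4 groups were cbx superficial (4 libraries), saline superficial (3 libraries), cbx deep (4 libraries) and saline deep (3 libraries). RNA of 3 brains was pooled for each library. The tests therefore rest on the spread between pools, and nothing in the labels says which pups shared a litter. The injection was into the eye, so the colliculus was not treated directly, and the loss of retinal waves was not measured in these libraries.

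At excitatory synapses these proteins form layers under the membrane. Dlg4 (PSD-95), Dlg2 (PSD-93), Dlg3 (SAP102) and Dlg1 (SAP97) bind glutamate receptors, potassium channels and adhesion proteins through PDZ domains, Dlgap proteins bind the guanylate kinase domain of the Dlg proteins, and Shank proteins link Dlgap to Homer and to the actin cytoskeleton. SAP102 is known in rodents as the member that is abundant early after birth, and PSD-95 as the one that accumulates while synapses mature. In the superficial colliculus of young rodents PSD-95 is known to move into dendrites and synapses around the time the eyes open, which comes later than the age sampled here.

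Library totals lay between 32004952 and 48776827 counts, and the members had 168 (Dlgap2) to 33245 (Dlg4) counts in a library. Levels are given as CPM, counts scaled to a common library size with TMM factors, which correct for differences in library composition. The tissue label was checked against marker genes. The 14 colliculus markers summed to 957 to 1118 CPM in each library, while the 7 cortical and hippocampal markers summed to 9.55 to 20.3 CPM. The 7 cerebellar markers summed to 81.1 to 113 CPM, with 2 of them, Gabra6 and Atoh1, at 0 in every group. Of the others, Calb1 had group means of 28.4 to 48.8 CPM and Barhl2 of 15.1 to 61.2 CPM. The pools differed in sex: saline pool 1 had 1.94 (superficial) and 0.572 CPM (deep) of Xist, the RNA that coats the silenced X chromosome of females, against 187 to 1127 CPM elsewhere. Cbx pool 4 had no count of the Y-linked Ddx3y in either layer, against 15.99 to 70.8 CPM elsewhere. Results are therefore also given without these 2 pools where that changed a call. Ddx3y was at 15.99, 38.6 and 17.7 CPM in the other cbx superficial libraries and at 37.0 and 45.3 CPM in the other saline superficial ones. In deep layers these pools were at 20.9, 37.2 and 18.9 CPM after cbx and 30.5 and 43.3 CPM after saline. Xist overlapped between them. Sex was thus not balanced between the treatments, and its part in the cbx against saline results was not tested. Libraries of 1 treatment that carry the same number in both layers varied together, so a replicate block is given beside the layer comparisons.

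Promoter windows were listed in RefSeq (GRCm38.p6) for 7 of the 10 members. They are given for Dlg1 and Dlgap1, because these 2 members stood on opposite sides of both the treatment and the layer comparisons described below. Each window runs from 250 bases before to 50 bases after the first transcript start listed, 5′ to 3′ on the plus strand. The Dlg1 window lies at chr16:31663685-31663984 and the Dlgap1 window at chr17:69968823-69969122. Capitals mark matches on either strand to CCAAT, to the GC box GGGCGG, to the E-box CACGTG or to the cyclic AMP response element TGACGTCA.
Dlg1: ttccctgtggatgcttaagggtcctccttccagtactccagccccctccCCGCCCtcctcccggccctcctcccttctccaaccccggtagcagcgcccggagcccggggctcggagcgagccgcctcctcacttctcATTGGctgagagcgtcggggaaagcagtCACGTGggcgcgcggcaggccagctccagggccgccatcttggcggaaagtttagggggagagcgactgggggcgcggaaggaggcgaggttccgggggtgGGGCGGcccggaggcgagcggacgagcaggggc
Dlgap1: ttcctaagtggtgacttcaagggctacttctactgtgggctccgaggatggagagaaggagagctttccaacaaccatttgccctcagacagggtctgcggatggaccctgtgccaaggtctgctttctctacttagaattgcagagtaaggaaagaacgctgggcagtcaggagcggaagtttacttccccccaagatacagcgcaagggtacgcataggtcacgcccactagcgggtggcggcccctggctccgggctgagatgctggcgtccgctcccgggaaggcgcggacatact
The Dlg1 window was 71.0% G and C with 27 CpG dinucleotides, and held 1 match to CCAAT, 2 to the GC box and 1 to CACGTG, none of which overlapped. The Dlgap1 window was 57.7% G and C with 15 CpG dinucleotides and held none of the motifs. Over 32851 windows of this length the median was 52.7% G and C with 7 CpG, and 37.4% held CCAAT, 35.7% the GC box, 7.15% CACGTG and 1.79% TGACGTCA. Other starts are listed for both genes, and which of them these tissues used was not measured.

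Per kilobase of each gene's principal transcript, Dlg4 had the highest level of the 10 in every group, at 180 ± 16.4 CPM per kb over all libraries (SD, n = 14). Dlgap3, at 87.9 ± 8.59 CPM per kb, and Shank1, at 62.1 ± 8.91 CPM per kb, came next, and their ranges over all libraries met while they stayed apart within each group. Shank3 (33.4), Dlgap1 (29.4), Dlg2 (28.3) and Dlg3 (26.2 CPM per kb) formed a middle set whose neighbours overlapped over all libraries. Shank2 (12.99), Dlg1 (8.04) and Dlgap2 (2.96 CPM per kb) stood below them, each apart from its neighbours. The order depends on which transcripts a gene uses: per kilobase of all exons joined, Dlg4 at 47.5 CPM per kb came behind Dlgap3 at 81.8 and Shank1 at 58.0, since the joined exons of Dlg4 cover 13251 bases and its principal transcript 3488.

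Within each family, 1 gene held most of the transcripts per kilobase of principal transcript. Dlg4 made up 71.2% to 76.9% of the Dlg total across the 14 libraries, Dlg2 10.6% to 12.8%, Dlg3 9.60% to 12.1% and Dlg1 2.44% to 4.46%. Shank1 made up 55.0% to 59.9% of the Shank total, Shank3 28.9% to 33.2% and Shank2 11.2% to 13.03%. Dlgap3 made up 69.3% to 77.0% of the Dlgap total, Dlgap1 21.6% to 27.7% and Dlgap2 1.38% to 3.38%. In each of the 14 libraries the leading gene of each family was thus the same.

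**Figure D1:**
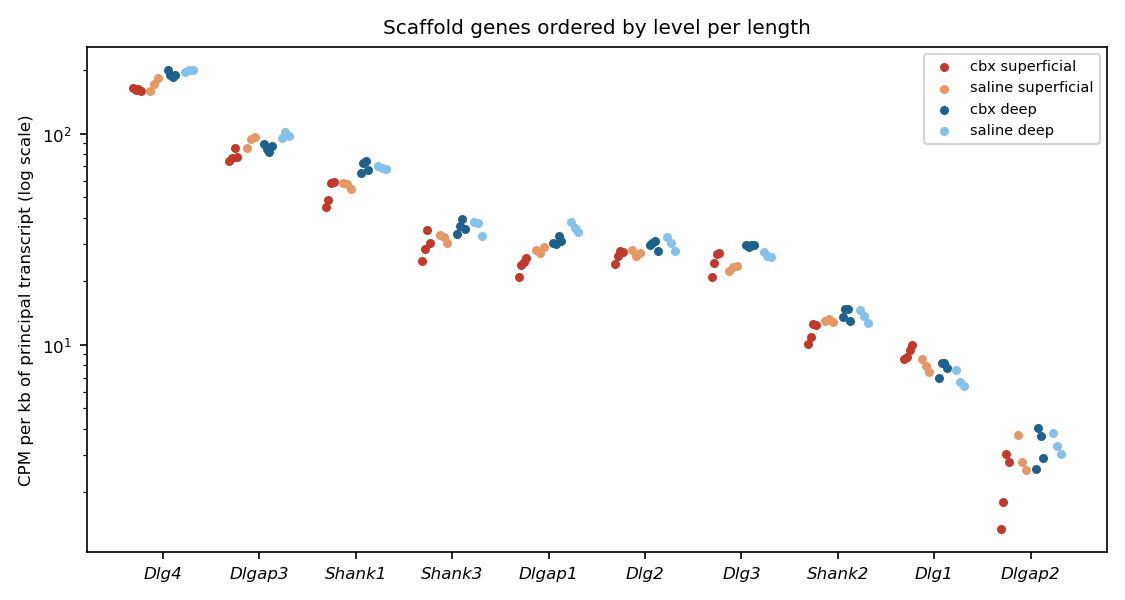
Level of each scaffold gene in each library, as CPM per kilobase of the principal transcript on a log axis, with genes ordered by their mean over 14 libraries and points coloured by group. Dlg4 lies above all other genes in every library (159 to 201 CPM per kb) and Dlgap2 below them (1.33 to 4.01 CPM per kb).

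Across superficial and deep layers after cbx, 6 scaffolds were lower and Dlg1 was higher in the superficial layers. This comparison asks how the scaffold transcripts were distributed over the visual and the multisensory layers when retinal waves had been targeted. Of all 20330 genes tested, 32.2% passed an adjusted p of 0.05 in either direction (edgeR quasi-likelihood test, Benjamini-Hochberg adjustment), 18.1% being higher and 14.1% lower in superficial layers. All libraries of the layers were apart for 6 members, as for 29.6% of all genes in either direction. The members' median log2 difference was -0.27, against 0.02 over all genes. In bulk tissue, fewer cells of a type and less RNA per cell cannot be told apart.

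Shank1, the largest pool of Shank transcripts, was at 444, 478, 572 and 578 CPM in the 4 cbx superficial libraries and at 637, 717, 732 and 664 CPM in the cbx deep ones. The groups did not overlap, and the log2 difference was -0.41 (SE 0.078, edgeR adjusted p = 0.000408). Dlgap1, which binds Dlg4 and Shank proteins, was at 110, 126, 131 and 136 CPM in cbx superficial and 161, 158, 172 and 164 CPM in cbx deep libraries. Its groups did not overlap either, and the difference was -0.38 on the log2 scale (SE 0.065, edgeR adjusted p = 0.000112).

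Dlg4, which encodes PSD-95, was at 574, 561, 570 and 556 CPM in cbx superficial and at 697, 665, 649 and 663 CPM in cbx deep libraries. The libraries of each layer lay within a narrow range and apart from the other layer, and the log2 difference was -0.24 (SE 0.056, edgeR adjusted p = 0.00235). Dlg3, which encodes SAP102, was at 102, 119, 132 and 132 CPM in cbx superficial and between 142 and 145 CPM in all 4 cbx deep libraries, at -0.25 on the log2 scale (SE 0.068, edgeR adjusted p = 0.00874). Here the superficial libraries were spread widely, and the deep ones were nearly level. Shank2 fell by 0.29 (SE 0.072, adjusted p = 0.00462 in edgeR) with no overlap, and Shank3 fell by 0.29 (SE 0.085, adjusted p = 0.0141 in edgeR) with libraries of 177 to 251 CPM in superficial and 240 to 280 CPM in deep layers, which overlapped.

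Dlg1, which encodes SAP97 and, outside neurons, serves cell polarity, was the only member that was higher in the superficial layers after cbx. Its libraries were at 40.2, 40.8, 44.1 and 46.5 CPM in cbx superficial and 32.4, 38.2, 38.2 and 36.4 CPM in cbx deep tissue. They did not overlap, and the log2 difference was 0.24 (SE 0.078, edgeR adjusted p = 0.0223). The other 3 members were not called. Dlg2, encoding PSD-93, differed by -0.17 (SE 0.064, edgeR adjusted p = 0.0511), Dlgap3 by -0.13 (SE 0.062, edgeR adjusted p = 0.119) and the sparsely counted Dlgap2 by -0.55 (SE 0.23, edgeR adjusted p = 0.0863). With the pool as a replicate block, Dlg2 and Dlgap2 also passed, which made 9 of 10, at adjusted p-values of 0.0211 and 0.00537 in edgeR, while 37.4% of all genes passed in that fit.

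After saline, 3 of the same scaffolds, Dlg4, Shank1 and Dlgap1, were lower in the superficial layers and none was higher. Of all genes tested, 18.4% passed in either direction, 9.67% being higher and 8.73% lower in superficial layers. The layers were apart for 4 members, as for 36.7% of all genes. The members' median log2 difference was -0.17, against 0.04 over all genes. Dlgap1 was at 148, 144 and 154 CPM in saline superficial and 200, 189 and 181 CPM in saline deep libraries, at -0.35 on the log2 scale (SE 0.074, edgeR adjusted p = 0.0017). Its layers were apart. Shank1 was at 577, 566 and 540 CPM in saline superficial and 690, 676 and 669 CPM in saline deep libraries, at -0.27 on the log2 scale (SE 0.090, edgeR adjusted p = 0.0386). Dlg4 was at 557, 602 and 639 CPM in saline superficial and 686, 696 and 700 CPM in saline deep libraries, at -0.21 on the log2 scale (SE 0.065, edgeR adjusted p = 0.0267). Neither gene's layers overlapped, though the superficial libraries of Dlg4 were spread far more widely than the deep ones.

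Among the members not called after saline, Dlg3 was at 110, 115 and 115 CPM in superficial and 135, 129 and 127 CPM in deep libraries, without overlap, at -0.20 on the log2 scale (SE 0.079, edgeR adjusted p = 0.0878). Dlg1 was at 40.1, 36.9 and 34.8 CPM in superficial and 35.5, 31.1 and 29.7 CPM in deep libraries, which overlapped, at 0.22 (SE 0.091, edgeR adjusted p = 0.115). Both passed once the pool was a replicate block, with Dlg1 at an adjusted p of 0.0356 and Dlg3 at 0.0426 in edgeR, so that 5 members were called, beside 22.9% of all genes. Dlg2 (-0.15), Shank2 (-0.08), Shank3 (-0.18), Dlgap2 (-0.16) and Dlgap3 (-0.09) had log2 differences below 0 and were not called.

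The saline layer calls rest on few pools. Leaving out each saline library in turn left 1 or 2 members called. Over all genes these fits called 2685 to 3406, against 3739 with all libraries. The call of Dlgap1 was made in all 6 such fits, that of Shank1 was lost in each of them, and that of Dlg4 was made only without saline superficial replicate 3. The log2 difference of Shank1 ran from -0.29 to -0.25 in these fits, against -0.27 with all libraries. Without saline pool 1 and cbx pool 4, none of the 10 was called in the saline layers, beside 2133 of 20908 genes. The log2 differences of this smaller fit were -0.31 for Dlgap1 (edgeR adjusted p = 0.0515), -0.28 for Shank1 and -0.17 for Dlg4. In the same fit, 6 members and 5382 of 20908 genes were called in the cbx layers, where Dlg1 and Shank3 lost their call and Dlg2 gained one. After cbx, Dlg3, Dlg4, Shank1, Shank2 and Dlgap1 passed in all 17 alternatives, Shank3 in 15 and Dlg1 in 12. The call of Dlg1 was lost without cbx superficial replicate 3, cbx superficial replicate 4 or cbx deep replicate 1, with adjusted p-values of 0.0505, 0.0722 and 0.0801 in edgeR, and that of Shank3 without cbx deep replicate 3, with 0.0518.

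**Figure D2:**
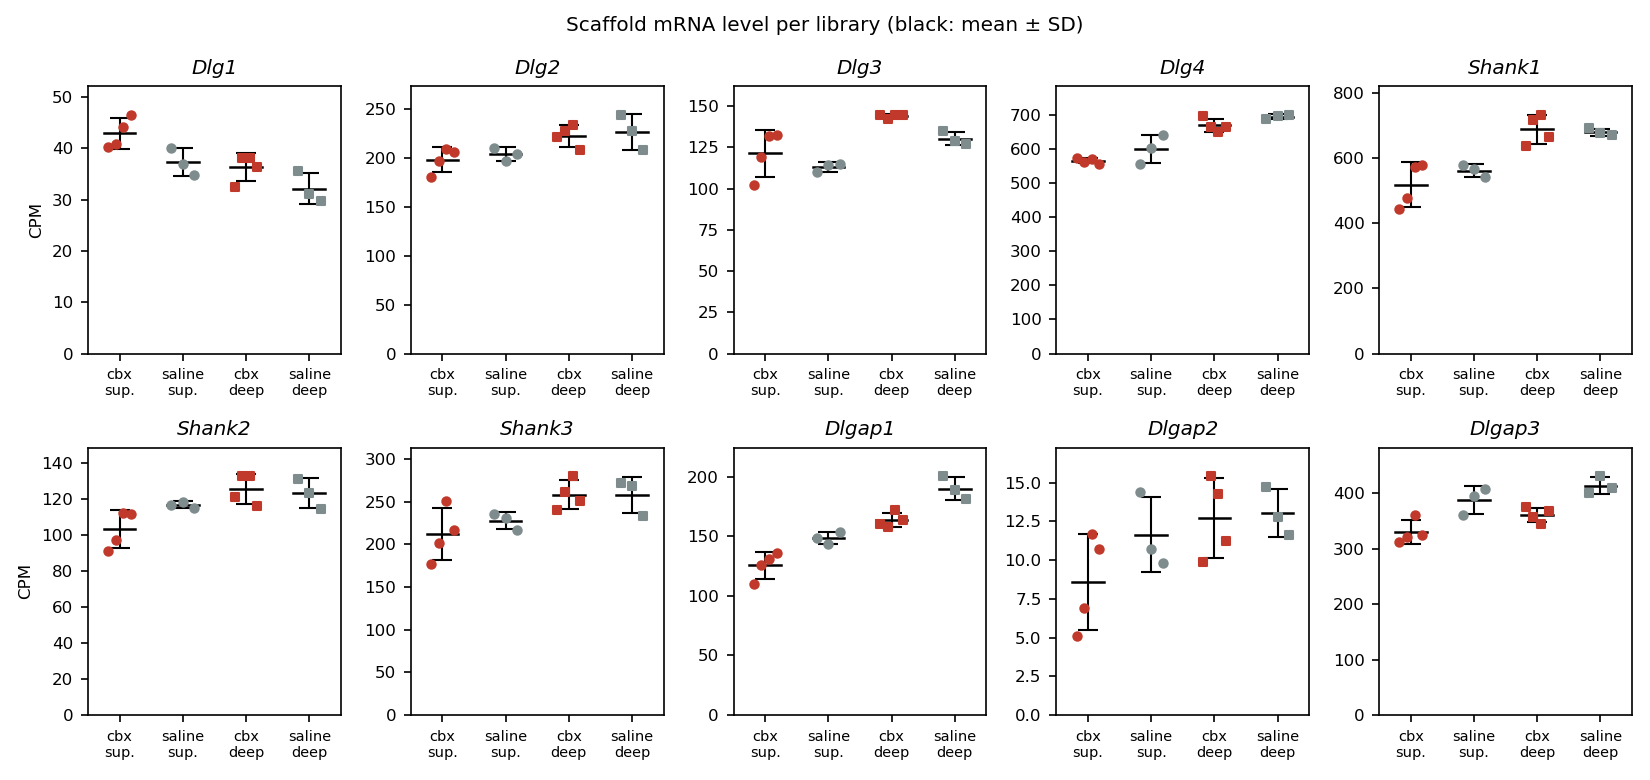
CPM of each of the 10 scaffolds in every library, with cbx in red and saline in grey, circles for superficial and squares for deep layers, and black lines for the group mean ± SD (n = 4 for cbx and 3 for saline). Dlg4, Shank1 and Dlgap1 lie lower in superficial than in deep libraries within both treatments, while Dlg1 means are higher in superficial tissue (42.9 against 36.3 CPM after cbx, and 37.3 against 32.1 CPM after saline).

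Other genes of the tissue moved between the layers beside the scaffolds. The 10 pan-neuronal markers had a median log2 difference, superficial minus deep, of -0.23 after cbx and -0.21 after saline, close to the members' medians. Their summed level was 5082 to 5205 CPM in cbx superficial against 5736 to 6273 CPM in cbx deep libraries, and 5195 to 5514 CPM in saline superficial against 6136 to 6270 CPM in saline deep libraries. Among them Nefl, a neurofilament, was lowest relative to deep layers, at -1.52 after cbx and -1.23 after saline, and Syt1, a vesicle calcium sensor, was higher at 0.57 and 0.66 (adjusted p of 1.18e-06 after cbx and 2.57e-06 after saline in edgeR). The 12 meningeal fibroblast markers summed to 1135 to 2147 CPM in cbx superficial against 214 to 253 CPM in cbx deep libraries, and to 928 to 1268 CPM in saline superficial against 275 to 287 CPM in saline deep libraries. None of the meningeal markers was at 0 in any group. The 10 oligodendrocyte lineage markers summed to 578 to 706 CPM in cbx superficial against 870 to 1021 CPM in cbx deep libraries, and to 579 to 871 CPM in saline superficial against 931 to 1194 CPM in saline deep libraries. The sum of 10 astrocyte markers ran the other way after cbx, at 2838 to 3367 CPM in superficial against 2058 to 2368 CPM in deep libraries. After saline it was 2974 to 3654 against 2346 to 2869 CPM. Single astrocyte genes were split, with 4 called higher and 2 lower after cbx, and 2 higher and 3 lower after saline. Their median log2 differences were 0.07 and 0.06. Gfap means were 478 against 10.7 CPM after cbx and 455 against 6.73 CPM after saline. Aqp4 means were 601 against 220 and 621 against 255 CPM. The summed 10 endothelial and pericyte markers were also higher in superficial layers, at 462 to 578 against 293 to 386 CPM after cbx. After saline they were at 551 to 587 against 367 to 387 CPM. The 12 microglia and macrophage markers overlapped between the cbx layers (360 to 398 and 366 to 411 CPM) and were apart between the saline ones (268 to 305 and 405 to 440 CPM). The part of these differences in cell content in the scaffold results was not tested.

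Among 33 further scaffold and adaptor genes of the density, 17 were lower and 2 higher in superficial layers after cbx, and 11 lower and 2 higher after saline, with medians of -0.24 and -0.17. Anks1b, a receptor-binding adaptor, was lower at -0.62 after cbx and -0.59 after saline. Homer3, which in rodents is best known from the cerebellum and links Shank to metabotropic receptors and calcium stores, was higher at 0.74 after cbx and 0.77 after saline (adjusted p of 1.66e-06 and 1.36e-05 in edgeR). Mpp3, a further membrane-associated guanylate kinase, and Begain, which binds PSD-95, were lower after cbx at -0.54 and -0.52. After saline, Begain was lower at -0.48 and Dynll2, a light chain of dynein, at -0.50.

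Of 20 signalling genes of the density, 15 were lower in superficial layers after cbx and 12 after saline and none was higher, with medians of -0.40 and -0.30. Akap5, which anchors kinases at Dlg proteins, was at -0.97 after cbx and -0.74 after saline. Nos1, neuronal nitric oxide synthase, which binds PSD-95, was at -0.95 and -0.98. Camk2d, a subunit of calcium/calmodulin-dependent kinase, was at -0.53 and -0.45, and Rasgrf1, a Ras activator, at -0.80 and -0.51.

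The 14 membrane partners of PSD-95 were genes for proteins that bind it or its partners, with the secreted Lgi1 counted among them. Of these, 12 were lower in superficial layers after cbx and 6 after saline, none was higher, and the medians were -0.45 and -0.26. Adam23, a receptor for the secreted Lgi proteins, was at -0.77 after cbx and -0.54 after saline. Grin1, the obligatory NMDA receptor subunit, was at -0.50 and -0.35, and Lrrc4, an adhesion protein, at -0.51 and -0.42. Cacng2, which tethers AMPA receptors to PSD-95, was called at -0.42 after saline, and Adam22, an Lgi receptor that binds PSD-95, at -0.51 after cbx.

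Palmitate holds PSD-95 at the membrane. Of 10 genes for enzymes that add or remove it, 2 were lower in superficial layers after cbx and 1 after saline, with medians of -0.0018 and -0.06. Zdhhc2, a palmitoyl transferase for PSD-95, was lower at -0.32 after cbx and -0.39 after saline (adjusted p of 0.000779 and 0.000943 in edgeR), and Zdhhc8 at -0.22 after cbx. Of 8 tested scaffold genes of inhibitory synapses, 3 were lower and 1 higher after cbx, and 2 lower and 2 higher after saline, with medians of -0.08 and -0.06. Mdga1, which blocks neuroligin binding, was lower at -1.15 after cbx and -0.90 after saline, while Iqsec3, a partner of gephyrin, was higher at 0.48 and 0.68. Gphn, which encodes gephyrin, was lower at -0.23 after cbx and was not called after saline at -0.11. These lists are described beside the background shares given above, and no test sets one list against another.

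**Figure D3:**
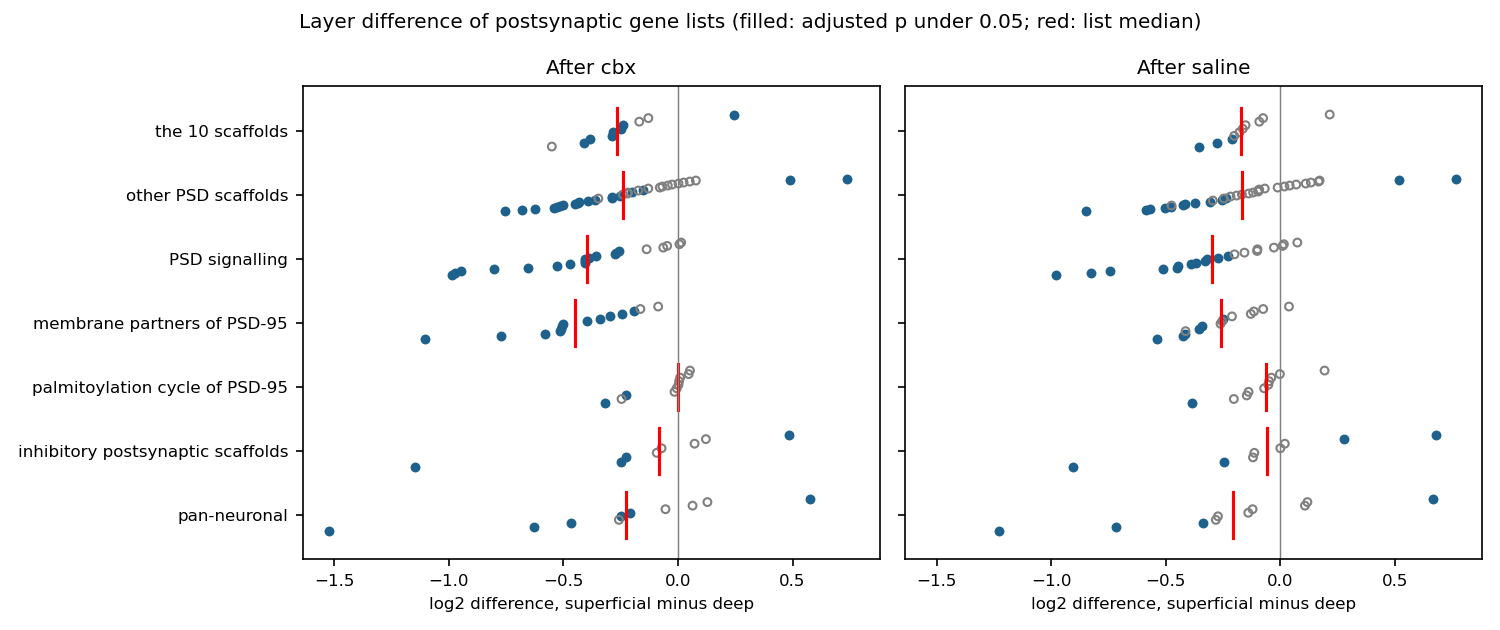
Log2 difference of each gene, superficial minus deep, after cbx (left) and after saline (right), for the 10 scaffolds, 5 further lists of synaptic genes and the pan-neuronal markers. Filled points passed an edgeR adjusted p of 0.05 and red bars mark list medians, which run from -0.45 (membrane partners of PSD-95, cbx) to -0.0018 (palmitoylation genes, cbx).

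Removing the dependence on transcript length and GC content from every library changed the balance of all genes called between the layers, with 41.5% of the called genes higher in superficial layers in place of 56.1% after cbx, and 39.9% in place of 52.6% after saline. Every member kept its direction in both layer comparisons under this removal.

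Cbx against saline in the superficial layers asks whether targeting retinal waves altered scaffold transcripts in the layers that receive retinal axons. None of the 10 members passed the threshold there with the edgeR test, while 4.33% of all genes did (2.68% higher and 1.65% lower). At an unadjusted p under 0.05 there were 4 members, namely Dlg1, Shank2, Dlgap1 and Dlgap3, and 20.6% of all genes. DESeq2 called 2 members and 7.8% of all genes, and limma-voom with a random replicate block 2 members and 4.37% of all genes. The members' median log2 difference was -0.11, against 0.01 over all genes, and 8 of the 10 values were below 0. Between all libraries of both groups, 3 members did not overlap, namely Dlg1 on the higher and Shank2 and Dlgap1 on the lower side, while 17.3% of all genes were apart in either direction.

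The 2 values nearest the threshold belonged to the Dlgap family. Dlgap1 was at 110, 126, 131 and 136 CPM in cbx superficial and 148, 144 and 154 CPM in saline superficial libraries. The groups did not overlap, and the log2 difference was -0.24 (SE 0.069, edgeR adjusted p = 0.0512). Dlgap3 was at 313, 322, 362 and 325 CPM in cbx superficial and 361, 396 and 408 CPM in saline superficial libraries, at -0.23 (SE 0.066, edgeR adjusted p = 0.051). Its groups met in a single pair of libraries. DESeq2 called both of these genes, at adjusted p-values of 0.0174 for Dlgap1 and 0.0125 for Dlgap3, and limma-voom with a random replicate block did as well, at 0.0487 and 0.0451. Leaving out cbx superficial replicate 3 gave an adjusted p of 0.0258 for Dlgap3, and leaving out cbx superficial replicate 4 gave 0.034 for Dlgap1, both in edgeR, and no member was called when any other library of these groups was left out. With the length and GC trend removed, Dlgap3 was at -0.15 (edgeR adjusted p = 0.124). With the replicate number as a block as well it was -0.15 (edgeR adjusted p = 0.207), though that number pairs no samples between treatments.

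Shank2 was at 91.1, 97.4, 112 and 112 CPM in cbx superficial and at 117, 119 and 115 CPM in saline superficial libraries. All cbx libraries were below all saline ones, at -0.18 on the log2 scale (SE 0.078, edgeR adjusted p = 0.195). With the length and GC trend removed the difference was -0.07 (edgeR adjusted p = 0.53). It was -0.05 with the replicate number as a block as well, which pairs no samples between treatments. Shank1 (-0.11, SE 0.084) and Shank3 (-0.11, SE 0.092) overlapped, with 444 to 578 against 540 to 577 CPM for Shank1 and 177 to 251 against 217 to 235 CPM for Shank3. Both turned to the other side of 0 when the length and GC trend was removed, at 0.04 and 0.02. Dlgap2 differed by -0.43 (SE 0.25, edgeR adjusted p = 0.358) on 5.13 to 11.7 CPM in cbx superficial and 9.82 to 14.4 CPM in saline superficial libraries. Without the low-count filter its adjusted p was 0.0305 in edgeR at the same size of difference (-0.42). Single libraries moved these uncalled values. Without cbx superficial replicate 1 the difference was -0.05 for Shank1, -0.03 for Shank3 and -0.25 for Dlgap2. Without saline superficial replicate 1 it was -0.25 for Dlgap2, and without cbx superficial replicate 3 it was -0.20 for Shank3.

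In the Dlg family, Dlg1 was at 40.2, 40.8, 44.1 and 46.5 CPM in cbx superficial and at 40.1, 36.9 and 34.8 CPM in saline superficial libraries. The lowest cbx library lay just above the highest saline one, and the log2 difference was 0.20 (SE 0.085, edgeR adjusted p = 0.179). Dlg3 differed by 0.10 (SE 0.074), with 102 to 132 CPM after cbx around the 110 to 115 CPM after saline, and it was 0.17 without cbx superficial replicate 1 and 0.06 without replicate 3 or replicate 4 of that group. Dlg4 differed by -0.08 (SE 0.060), the 4 cbx libraries lying at 556 to 574 CPM and the saline ones at 557 to 639 CPM, and the 95% interval of its difference ran from -0.22 to 0.05. Without saline superficial replicate 1 it was -0.14, and without saline superficial replicate 3 it was -0.03. For Dlg2 the difference was -0.04 (SE 0.069), and the 95% interval from -0.20 to 0.11.

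Cbx superficial replicate 1 was the lowest of its group for 9 of the 10 members, all but Dlg4, for which it was the highest. Meningeal markers summed to 1135 to 2147 CPM in cbx superficial against 928 to 1268 CPM in saline superficial libraries, pan-neuronal markers summed to 5082 to 5205 against 5195 to 5514 CPM, and the 12 microglia and macrophage markers to 360 to 398 against 268 to 305 CPM. The 5 red blood cell markers summed to 238 to 388 against 149 to 230 CPM. Their part in the small differences of the scaffolds was not tested.

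In the deep layers, cbx against saline called none of the 10 members in the edgeR test, while 1.83% of all genes passed (1.06% higher and 0.777% lower). Unadjusted p-values under 0.05 were found for 2 members, Dlgap1 and Dlgap3, and for 15.3% of all genes. DESeq2 and limma-voom called 0 members, and 4.43% and 1.66% of all genes. The members' median log2 difference was -0.01, against 0.01 over all genes, with 5 values on each side of 0. Again 3 members were apart between all libraries of both groups, while 16% of all genes were. The cbx libraries of Dlg3 lay above the saline ones, and those of Dlgap1 and Dlgap3 below.

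Dlgap1 was at 161, 158, 172 and 164 CPM in cbx deep and 200, 189 and 181 CPM in saline deep libraries. Every cbx library was below every saline library, at -0.22 on the log2 scale (SE 0.069, edgeR adjusted p = 0.117), and the adjusted p was 0.0276 in edgeR once the length and GC trend was removed. Dlgap3 was at 375, 357, 346 and 368 CPM in cbx deep and 402, 431 and 409 CPM in saline deep libraries, again without overlap, at -0.20 (SE 0.066, edgeR adjusted p = 0.142). Dlg3 was at 145, 142, 145 and 144 CPM in cbx deep and 135, 129 and 127 CPM in saline deep libraries, without overlap, at 0.15 (SE 0.074, edgeR adjusted p = 0.361). Dlg1 differed by 0.17 (SE 0.085, edgeR adjusted p = 0.338) with overlap. Dlg4 was at 649 to 697 CPM in cbx deep and 686 to 700 CPM in saline deep libraries, which overlapped, at -0.05 (SE 0.060). The 3 Shank genes were close to 0 in the log2 difference: Shank1 was at 0.02, Shank2 at 0.03 and Shank3 at 0.0015, with SE of 0.084, 0.078 and 0.092.

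Removing the length and GC trend changed the balance of all genes called after cbx too, with 47.7% of called genes higher in place of 61.9% in superficial layers, and 46% in place of 57.6% in deep layers. Under that removal Dlgap1 was the single member called in each layer, at -0.21 in both, while 5.75% of all genes were called in superficial and 4.17% in deep layers.

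**Figure D4:**
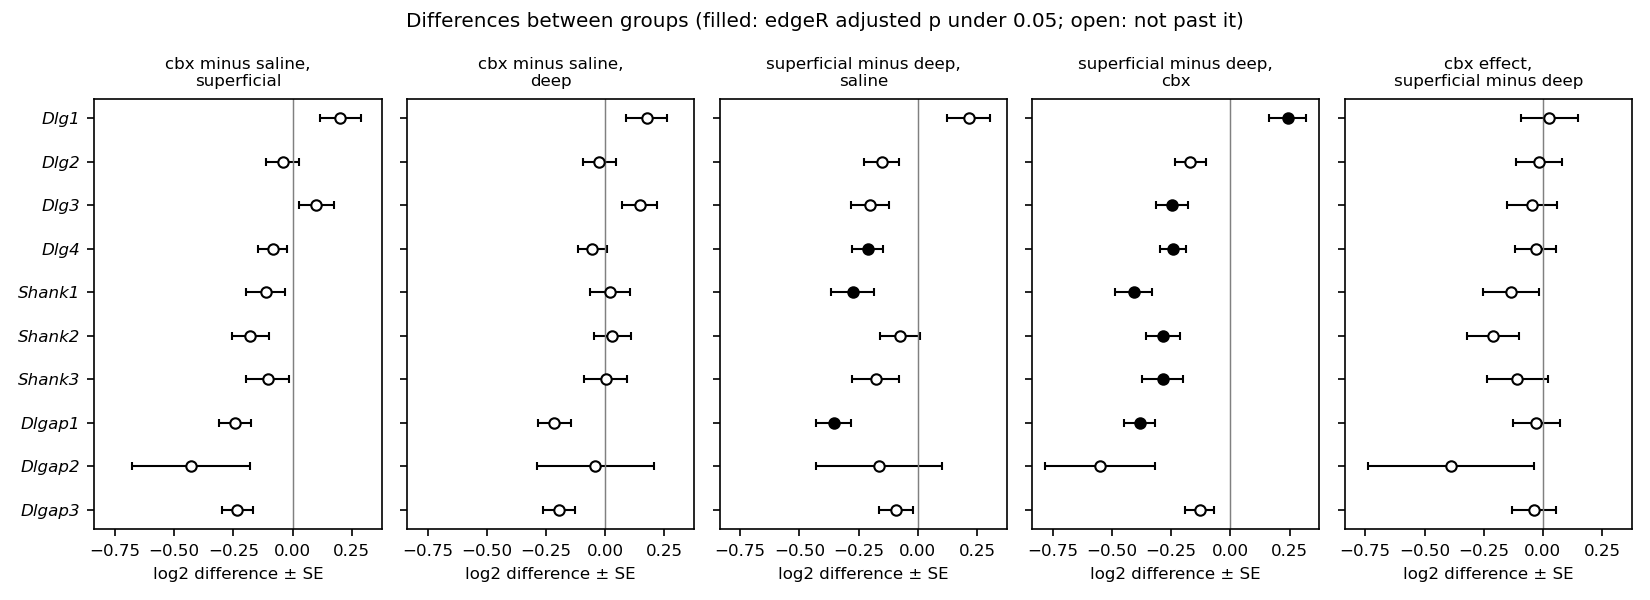
Log2 difference ± SE of each scaffold in the 5 comparisons, with filled points for an edgeR adjusted p under 0.05. Filled points occur only between layers, 7 after cbx and 3 after saline, and in both cbx against saline panels Dlg1 and Dlg3 lie to the right of 0 and Dlgap1 and Dlgap3 to the left.

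Whether the cbx effect differed between the layers was tested directly as an interaction, which called 0 of the 10 members and 0 of all genes (0% of 20330) in edgeR. No member had an unadjusted p under 0.05, and DESeq2 and limma-voom with a random replicate block called 0 members as well. Over all genes 1699 (8.36%) had an unadjusted p under 0.05. DESeq2 called 60 of all genes (0.295%), limma-voom 5 (0.0246%) and edgeR with the pool as a replicate block 61 (0.3%), none of them a member. The nearest was Shank2, whose cbx difference in superficial minus deep layers was -0.21 on the log2 scale (SE 0.11, edgeR adjusted p = 0.632, 95% interval -0.45 to 0.04). For Dlg4 the interval ran from -0.22 to 0.16 and for Dlgap1 from -0.25 to 0.19, while for Dlgap2 it ran from -1.17 to 0.40. The larger number of members called between the layers after cbx than after saline is therefore not shown to be a difference between the treatments, and the cbx comparison had 1 more library in each layer.

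Of the 33 other scaffold genes, Dynll1, a dynein light chain, was higher (0.58) and Ctnnd2, Cnksr2 and Grip1 were lower after cbx in superficial layers (-0.26, -0.33 and -0.30), and none passed in deep layers. Ctnnd2 encodes a catenin of dendrites, Cnksr2 a scaffold of Ras signalling and Grip1 an AMPA receptor binding protein. Of the 20 signalling genes, Camk2g, Git1 and Arhgef7 were lower after cbx in superficial layers (-0.29, -0.22 and -0.23) and none passed in deep layers. Git1 and Arhgef7 encode partners that act on small GTPases in spines. Beside these lists, 4.33% of all genes passed in superficial and 1.83% in deep layers.

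Among the 14 membrane partners, Nlgn2, Nlgn1 and Grin2a were lower in superficial layers after cbx, at -0.27, -0.36 and -0.40 (adjusted p of 0.0259, 0.0381 and 0.048 in edgeR). Nlgn1 and Nlgn2 encode adhesion proteins of excitatory and of inhibitory synapses, and Grin2a an NMDA receptor subunit that increases as synapses mature. In deep layers Kcna4, a potassium channel subunit clustered by PSD-95, was higher at 0.48 (adjusted p = 0.00997 in edgeR). None of the 10 palmitoylation genes and none of the 8 inhibitory scaffold genes passed in either layer. The smallest adjusted p-values in edgeR were 0.131 (Zdhhc3, deep) and 0.0582 (Iqsec3, superficial). At 4.33% and 1.83% of all genes passing in superficial and deep layers, lists this short would hold few calls or none.

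The ratio of Dlg4 to Dlg3 counts in a library, which needs no scaling between libraries, was set beside these results because PSD-95 and SAP102 are known to change in opposite directions during development. The ratio was chosen after its values were seen. It was 4.82, 4.67, 4.48 and 4.59 in cbx deep and 5.09, 5.41 and 5.5 in saline deep libraries. All cbx libraries lay below all saline ones, with a mean log2 difference of -0.20, which is given without a test because of that choice. In superficial layers it was 5.61, 4.71, 4.33 and 4.2 after cbx and 5.06, 5.25 and 5.55 after saline. There the groups overlapped through cbx superficial replicate 1, the highest of all 7, and the mean log2 difference was -0.18. Leaving out single libraries moved this difference between -0.26 and -0.12 in superficial and between -0.23 and -0.18 in deep layers. Without saline pool 1 and cbx pool 4 it was -0.15 in superficial and -0.23 in deep layers. Dlg3 is on the X chromosome, and the part of sex in this ratio was not tested.

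**Figure D5:**
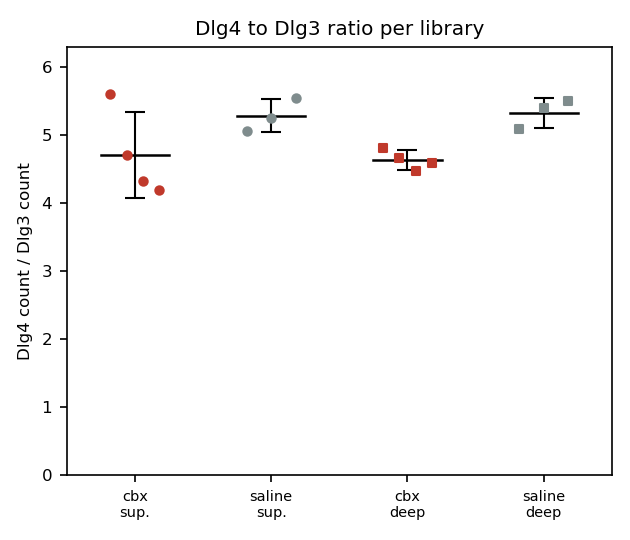
Ratio of Dlg4 to Dlg3 counts in each library, with cbx in red and saline in grey, circles for superficial and squares for deep layers, and black lines for the group mean ± SD (n = 4 for cbx and 3 for saline). In deep layers the cbx libraries (4.64 ± 0.144) lie below the saline ones (5.33 ± 0.217), while in superficial layers they overlap (4.71 ± 0.637 and 5.29 ± 0.244).

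The spread between pools differed among the members. The coefficient of variation within a group was 11.9% to 36.1% for Dlgap2, which had 168 to 565 counts per library, and 1.06% to 6.91% for Dlg4. Shank3 reached 14.5%, Shank1 13.1% and Dlg3 11.6%, each in 1 of the 4 groups, while Dlgap3 stayed at 3.57% to 6.53%. In saline deep tissue, replicate 1 was the highest of its group for 8 of the 10 members and replicate 3 the lowest for 8. Dlg3 is on the X chromosome, and in the pools that differed in sex it was at 132 and 144 CPM in cbx pool 4 and at 110 and 135 CPM in saline pool 1, superficial before deep.

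For the member of each family with the highest mean CPM, the genes of most similar pattern were looked up among 15167 genes, by the Pearson correlation of log2 CPM over the 14 libraries, which share layer, pool and depth. The genes close to Dlg4 included Slc25a12, a mitochondrial carrier, at 0.98, and Mapk8ip1, a scaffold of kinases, at 0.98. Shank1 was nearest to Chd5, a chromatin remodeller, at 0.98, and to the calcium channel genes Cacna1b and Ryr2, each at 0.98. Dlgap3 was nearest to Tesk1, a kinase, at 0.94, Fam168b at 0.93 and Sema4d, a semaphorin, at 0.92. Within the 7 libraries of a single layer the correlations of these pairs were 0.77 to 0.98.

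Gene models share little sequence with other genes on these loci. The largest overlap was 3.22% of the exons of Shank1, with 1700008O03Rik on the opposite strand, followed by 2.95% of Shank3 with the long noncoding RNA Gm15609. These overlapping genes had 551 and 492 counts over all libraries against 312317 for Shank1 and 122098 for Shank3. The strand setting of the counting was not given, and such reads cannot be told apart.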

How the data were processed

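Per the labels' protocols, poly-A selected RNA was sequenced in 150-base pairs. The authors deposited whole-number read counts per gene, with 55359 Ensembl IDs in each table. The submitters' processing notes name FastQC 0.11.9, STAR 2.7.9d, SAMtools 1.14, Subread 2.0.1 and featureCounts, beside the builds mm10 and GRCm39. Strand setting and annotation were not given in the sources used here.

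Symbols matched 52083 IDs, holding 98.7% of the counts. Chromosomes, GC content and lengths of the APPRIS principal transcripts came from GENCODE M21. A robust quasi-likelihood model of 4 group means (edgeR 4.0.16, R 4.3.3, filterByExpr, TMM) was fitted to the 14 libraries, leaving 10 residual degrees of freedom. Benjamini-Hochberg adjustment ran over 20330 genes, and adjusted p-values under 0.05 were called.

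The replicate number paired the layers, since deviations of same-numbered libraries correlated (0.182 to 0.394, 7 pairs). It did not pair the treatments (-0.276 to -0.0167, 6 pairs). Chi-square per gene was 7.16 to 47.5 over 18 replicate pairs, above sampling noise in each, so each library within a group was taken as a sample. These pairs lie within groups and do not bear on independence between layers. The main fit treated all 14 libraries as independent and left the pairing of layers to the replicate block.

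As alternatives, the fits were repeated with DESeq2 1.42.0 and its size factors, limma-voom (limma 3.58.1) and unfiltered genes. Limma-voom took the pool as its random block in every comparison. Others used a replicate block in edgeR, which was the pool between layers and for the interaction and the number between treatments. The rest used only the groups compared, left out libraries or 2 pools, or removed length and GC trends (known for 99.6% of genes). The members and lists were chosen with earlier results of these data known. All members are named, with up to 4 genes of smallest p per list and comparison, and 3 nearest genes for the member of highest mean CPM per family, of which 1 is not reported here. Insyn2a was not analysed here.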

Additional observations from a re-analysis of the deposited data

How the results depend on the processing

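Of the members' alternatives, 753 kept direction and side of the threshold, 22 lost and 40 gained a call, and 45 reversed a direction, all of them in values that were not called. After cbx against saline in superficial layers, the 0 members called became 1 without the low-count filter, 2 with DESeq2, 2 with limma-voom with a random replicate block, 1 with the length and GC trend removed, 1 with that removal and the replicate block, and 0 to 1 with single libraries left out. Over all genes, these fits called 1459 of 38164, then 1585, 889, 1169 and 880 of 20330, and 140 to 907 with single libraries left out. In deep layers it became 1 with the trend removed, without and with the block, beside 848 and 625 of 20330 genes. Between saline layers the 3 called became 5 with only the groups compared, 5 with the replicate block, 5 with the trend removed, 6 with both, 0 without saline pool 1 and cbx pool 4, and 1 to 2 with single libraries left out. Over all genes, these fits called 4587 of 18787, then 4662, 4576 and 5498 of 20330. Without the pools 2133 of 20908 were called, and with single libraries left out 2685 to 3406. The replicate block changed no other count of members by over 1.5 times. Between cbx and saline, where the number pairs no samples, it left 480 genes called in superficial and 191 in deep layers.

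Counts over all genes ranged widely over the alternatives: 91 to 1585 for cbx against saline in superficial layers (880 in the main analysis), 14 to 901 in deep layers (373), 5382 to 8015 between cbx layers (6544), 2133 to 5498 between saline layers (3739) and 0 to 256 for the interaction (0). Of single libraries, leaving out saline superficial replicate 2 left 140 calls in superficial layers, saline deep replicate 3 left 42 in deep layers, and cbx superficial replicate 2 gave 14 in the interaction.

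Reversed values were small. For cbx against saline in superficial layers, trend removal without and with the block gave 0.021 and 0.044 for Dlg2, 0.043 and 0.043 for Shank1, 0.018 and 0.031 for Shank3. In deep layers Shank3 was at -0.0056 with median-of-ratios size factors, -0.0052 without filter, -0.0056 with DESeq2 and -0.0030 with the replicate block, which gave -0.0025 for Shank1. Without both pools Dlg2 was at 0.063 and Dlgap2 at 0.11. Over single libraries left out the values ran from -0.084 to 0.031 (Dlg2), -0.012 to 0.054 (Shank1), -0.020 to 0.078 (Shank2), -0.066 to 0.040 (Shank3), -0.15 to 0.065 (Dlgap2).

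For the interaction, Dlg1 was at -0.034 without both pools. Trend removal without and with the block gave 0.045 and 0.046 for Dlg2, 0.0039 and 0.0058 for Dlgap1, 0.016 and 0.018 for Dlgap3. Over single libraries left out the values ran from -0.049 to 0.084 (Dlg1), -0.073 to 0.042 (Dlg2), -0.090 to 0.027 (Dlg3), -0.080 to 0.021 (Dlg4), -0.068 to 0.030 (Dlgap1), -0.087 to 0.0022 (Dlgap3). The causes were not tested.

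Depth bears most on Dlgap2, with 168 to 565 counts per library, where counting error alone gives a coefficient of variation of 4.21% to 7.72%. The observed 11.9% to 36.1% within groups was larger, and the 95% interval of its superficial cbx difference ran from -0.98 to 0.13. With 3 or 4 pools per group, the intervals of other members were also wide, as for Shank2 (-0.35 to -0.01) and Dlg1 (0.01 to 0.39). These intervals are for single genes and are not adjusted over the 20330 genes tested. Neither Shank2 nor Dlg1 was called in that comparison (edgeR adjusted p of 0.195 and 0.179).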
